A study of Mus musculus with 16 samples.

Results

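Levels of 5 genes of the TWEAK pathway were followed through mouse hearts that differed in genotype and age: the receptor gene Tnfrsf12a, its ligand gene Tnfsf12, the adaptor gene Traf2 and the NF-kB subunit genes Nfkb2 and Relb. They are 5 of the 14109 genes in the deposited table, found there by symbol. Tnfrsf12a was selected on its measured rise in R502W hearts, and the other 4 for their place in the same pathway. Its differences between genotypes, its change with age in R502W and the comparison of its genotype difference between ages are therefore given as a description, with no test.

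The hearts came from WT mice and from mice with R502W, an amino acid change in cMyBP-C, the cardiac myosin-binding protein of the thick filament. Each genotype was sampled at 3 and at 18 weeks, with 4 libraries in each of the 4 groups and 16 in all, made from polyA-selected RNA of whole hearts with a strand-specific protocol. The library names of the R502W samples begin with KI, which the labels do not spell out. The labels do not otherwise say how the R502W line was made or whether its animals carried 1 or both altered copies. They also do not give the sex, strain, litter or batch of any animal. They also do not say that each library is a separate animal, so the p-values cover only how these samples varied, which may be technical variation.

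TWEAK is a cytokine of the TNF family, made as a membrane protein and also released in soluble form. Its receptor, known as Fn14, has no enzyme activity and passes the signal on through TRAF adaptor proteins, which lead to the canonical NF-kB pathway and, through the NF-kB-inducing kinase, to the noncanonical pathway that processes the Nfkb2 precursor and frees complexes of its product with RelB. The receptor is scarce in healthy adult heart and skeletal muscle and is known to be induced by injury, denervation and mechanical load.

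The recovered reads per library ranged from 17521147 to 30672577, and the 5 genes had between 109 and 2062 reads in any library. Levels are in CPM, read counts scaled to library size by the authors, and differences are on the scale of log2(CPM + 1), a scale that shrinks the differences of weakly expressed genes. In these bulk samples, fewer cells of a type and less RNA per cell cannot be told apart. The samples carried the transcripts of heart muscle: all 8 cardiomyocyte markers were measured, and their summed level lay between 52583 and 64257 CPM in the 16 libraries. The summed level of 4 atrial markers ran from 2.86 to 863 CPM, and R502W 3 weeks sample 1 stood apart with a mean log2 level of 0.62. Tnfrsf12a was 35.8 CPM in that library, between the 24.5 and 46.6 CPM of the other libraries of its group.

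The receptor gene Tnfrsf12a (chr17:23675445-23677468, minus strand, GRCm38) was higher in R502W than in WT hearts at both ages, and higher at 18 than at 3 weeks in both genotypes. WT hearts at 3 weeks had 10.4, 8.08, 12.8 and 8.08 CPM in samples 1 to 4, a mean of 9.83 ± 2.24 (SD, n = 4). R502W hearts at 3 weeks had 35.8, 34.4, 46.6 and 24.5 CPM, a mean of 35.3 ± 9.05 (SD, n = 4). The lowest R502W library of that age was thus above every WT library of the same age. At 18 weeks the WT libraries had 20.2, 25.3, 33.0 and 26.7 CPM, a mean of 26.3 ± 5.26 (SD, n = 4). The R502W libraries had 80.9, 71.4, 75.8 and 84.1 CPM, a mean of 78.1 ± 5.61 (SD, n = 4). Again the genotypes did not overlap, and R502W at 18 weeks was above every other library of the study. Genotypes did not overlap for 14.0% of all genes at 3 weeks and 13.7% at 18 weeks, and Tnfrsf12a was selected on its rise.

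The ratio of the mean levels, R502W over WT, was 3.59 at 3 weeks and 2.97 at 18 weeks. On the log2 scale the difference was 1.73 (SE 0.17) at 3 weeks and 1.55 (SE 0.17) at 18 weeks, and the second minus the first was -0.18 (SE 0.23). Ranked by rise among the 14109 genes, Tnfrsf12a stood at position 8 at 3 weeks and at position 32 at 18 weeks. Between the ages the ratio of means was 2.68 in WT and 2.21 in R502W. The rise with age in WT was 1.34 (SE 0.17, limma adjusted p = 8.044e-06), which the selection did not use, although the WT libraries also serve in the comparisons that it used. The groups did not overlap between ages in either genotype, which also held for 28.1% of all genes in WT and 33.7% in R502W. In R502W the difference with age was 1.15 (SE 0.17).

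The order of the group means was WT at 3 weeks, WT at 18 weeks, R502W at 3 weeks and R502W at 18 weeks. The pair in the middle overlapped: R502W hearts at 3 weeks and WT hearts at 18 weeks shared the range from 24.5 to 33.0 CPM, and their means differed by 0.40 on the log2 scale. The other neighbours in the order did not overlap. In each of the alternatives tried, the 4 differences of Tnfrsf12a kept their direction, with 1.59 to 1.89 at 3 weeks and 1.44 to 1.66 at 18 weeks. The groups did not overlap in these 4 comparisons, so leaving out 1 library could not have reversed a direction.

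**Figure D1:**
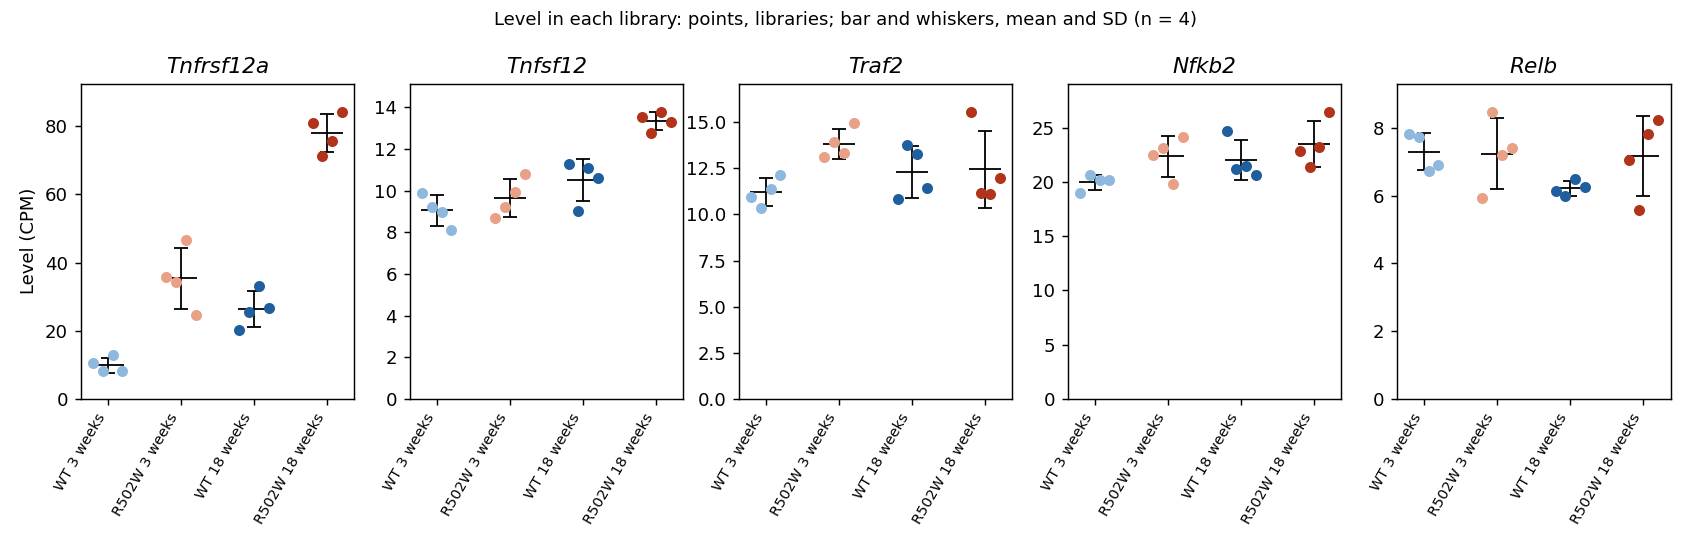
Level in CPM (vertical axes, each starting at 0 with its own scale) of the 5 genes in the 4 groups (horizontal axis). Points are the 4 libraries of a group, and the bar and whiskers are the mean and SD. Tnfrsf12a rises from a mean of 9.83 in WT at 3 weeks to 78.1 in R502W at 18 weeks, while the other 4 genes stay within 5.57 and 26.5 CPM.

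The RefSeq promoter table (GRCm38.p6) holds an upstream window for Tnfrsf12a, Traf2 and Nfkb2 among the 5 genes. Tnfsf12 and Relb had no entry. The 250 bases before the annotated start of Tnfrsf12a (chr17:23677450-23677699, minus strand) are shown because this is the gene with the large differences. They were searched on both strands for AP-1 (TGANTCA), TEAD (GGAATG), and the NF-kB and serum response factor consensus sites, and held no match to any of the 4. That says only that these letters are not in this window.
Tnfrsf12a: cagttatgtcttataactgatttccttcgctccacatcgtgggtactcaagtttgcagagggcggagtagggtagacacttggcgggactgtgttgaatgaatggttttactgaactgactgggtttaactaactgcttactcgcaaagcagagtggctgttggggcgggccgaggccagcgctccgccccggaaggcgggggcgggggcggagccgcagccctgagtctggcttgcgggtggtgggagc

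Markers of other cells were followed beside the receptor, and their sums were not tested. The summed level of 7 fibroblast markers was 1093 to 1266 CPM in 3-week WT hearts, 1162 to 1632 CPM in 3-week R502W hearts, 674 to 721 CPM in 18-week WT hearts and 806 to 913 CPM in 18-week R502W hearts. Of the 7, 1 rose and 0 fell with R502W at 3 weeks, where 3.13% of all genes rose and 3.30% fell, and 2 rose and 0 fell at 18 weeks, where 5.60% rose and 5.10% fell. With age in WT, where Tnfrsf12a rose, all 7 fell, beside 14.4% of all genes. Of the 8 cardiomyocyte markers, 0 rose and 2 fell with R502W at 3 weeks, and 0 rose and 1 fell at 18 weeks. The 4 atrial markers summed to 33.1 to 787 CPM in 18-week WT hearts (median 112) and to 209 to 863 CPM in 18-week R502W hearts (median 628). Their median log2 difference at 18 weeks was 2.08, the genotypes overlapped in this sum, and 0 of the 4 passed the test. At 3 weeks the sums were 144 to 398 CPM in WT and 2.86 to 796 CPM in R502W, with a median log2 difference of -0.70. With the mean atrial level as a covariate the difference of Tnfrsf12a was 1.71 at 3 weeks and 1.62 at 18 weeks, a fit added once the data had been seen. The part of the fibroblast and cardiomyocyte markers in the level of Tnfrsf12a was not tested.

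The ligand gene Tnfsf12 (chr11:69686250-69695849, minus strand, GRCm38) changed little beside its receptor and was highest in R502W hearts at 18 weeks. At 3 weeks it had 9.89, 9.21, 8.99 and 8.12 CPM in WT samples 1 to 4 and 8.69, 9.23, 9.94 and 10.8 CPM in R502W, and the genotypes overlapped. At 18 weeks it had 11.3, 9.03, 11.1 and 10.6 CPM in WT and 13.5, 12.8, 13.8 and 13.3 CPM in R502W, and they did not overlap. The WT and R502W means were 9.05 ± 0.73 and 9.66 ± 0.91 CPM in the younger hearts and 10.5 ± 1.03 and 13.3 ± 0.44 CPM in the older ones (SD, n = 4 each).

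Tnfsf12 was 0.32 higher in R502W at 18 weeks (SE 0.09, limma adjusted p = 0.0246), where 5.60% of all genes rose and 5.10% fell, and the genotypes of 13.7% of genes did not overlap. At 3 weeks the difference was 0.08 (SE 0.09, limma adjusted p = 0.677, 95% interval -0.10 to 0.27). With age it rose by 0.43 in R502W (SE 0.09, limma adjusted p = 8.768e-04), where 18.5% of all genes rose and 17.3% fell. In WT the difference with age was 0.19 (limma adjusted p = 0.105), where 15.8% of all genes rose and 14.4% fell. The genotype difference at 18 weeks exceeded that at 3 weeks by 0.24 (SE 0.12, limma adjusted p = 0.519), which did not pass the test.

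The call at 18 weeks was lost in 7 of 31 alternatives. Without WT 18 weeks sample 2, the lowest WT library of that age, the difference was 0.26 (limma adjusted p = 0.0805), and the adjusted p was 0.0577, 0.0624 and 0.0585 without R502W 18 weeks samples 1, 3 and 4. The ligand's values are also uncertain because 48.3% of its exonic bases are shared with Tnfsfm13, a same-strand gene joined to Tnfsf13, and the counting could have split reads between them. Tnfsfm13 had 59 to 153 reads per library. Per kilobase of exon, the receptor went from 5.09 CPM in WT at 3 weeks and 13.6 in WT at 18 weeks to 18.3 and 40.4 in R502W at 3 and 18 weeks. The ligand was at 5.98, 6.94, 6.38 and 8.81 CPM per kilobase in the same groups, so the genes stood near each other in the youngest WT hearts and apart in the other groups.

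Macrophages are a known source of the ligand, and their 8 markers summed to 199 to 263 CPM in WT and 199 to 224 CPM in R502W at 18 weeks, overlapping ranges. Of these markers 0 rose and 1 fell with R502W at 18 weeks, beside 5.60% of all genes that rose and 5.10% that fell. The 1 was Cd163, which is also counted below among the genes linked to TWEAK and whose call was lost in 7 of 31 alternatives. The lymphocyte list had 2 of 7 markers measured, at 0.97 to 2.94 CPM in sum, and the neutrophil list 2 of 5, at 1.18 to 8.16 CPM. Their part in the level of Tnfsf12 was not tested. The atrial markers, given above, had the higher median sum in R502W at this age, and with their mean as a covariate the difference of Tnfsf12 was 0.31 (limma adjusted p = 0.0602).

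The adaptor gene Traf2 (chr2:25517982-25546940, minus strand, GRCm38), whose product binds the receptor tail and carries the inhibitor-of-apoptosis ligases, did not pass the test in any comparison. At 3 weeks it had 10.96, 10.3, 11.4 and 12.2 CPM in WT and 13.1, 13.96, 13.3 and 14.95 CPM in R502W samples 1 to 4. These genotypes did not overlap, as for 14.0% of all genes, and the difference of 0.28 (SE 0.10) had a limma adjusted p of 0.114. At 18 weeks it had 10.8, 13.8, 13.3 and 11.4 CPM in WT and 15.5, 11.2, 11.1 and 11.97 CPM in R502W. Here the genotypes overlapped, with a difference of 0.01 (limma adjusted p = 0.972, 95% interval -0.20 to 0.22). With age the difference was 0.12 in WT and -0.15 in R502W, and without R502W 18 weeks sample 1, its highest library, the latter was -0.25 (limma adjusted p = 0.0430).

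Nfkb2 (chr19:46304320-46312385, plus strand, GRCm38), which encodes the precursor protein processed in the noncanonical pathway, also passed no test. It had 19.0, 20.7, 20.2 and 20.2 CPM in WT and 22.5, 23.2, 19.8 and 24.2 CPM in R502W samples 1 to 4 at 3 weeks. The difference between genotypes was 0.15 (SE 0.08, limma adjusted p = 0.294, 95% interval -0.01 to 0.32). At 18 weeks it had 24.7, 21.2, 21.5 and 20.7 CPM in WT and 22.9, 21.4, 23.2 and 26.5 CPM in R502W, overlapping ranges with a difference of 0.09 (limma adjusted p = 0.534). The WT libraries of the ages lay side by side without overlap, as for 28.1% of all genes, with a difference of 0.13 (limma adjusted p = 0.223).

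Relb (chr7:19606217-19629438, minus strand, GRCm38), the usual partner of the processed Nfkb2 product, was the least abundant of the 5 per kilobase, at 1.60 to 1.88 CPM. It had 7.80, 7.72, 6.74 and 6.91 CPM in WT and 5.92, 8.46, 7.19 and 7.40 CPM in R502W at 3 weeks, a difference of -0.02 (limma adjusted p = 0.965). At 18 weeks it had 6.14, 5.98, 6.48 and 6.25 CPM in WT and 7.04, 5.57, 7.83 and 8.22 CPM in R502W. The genotypes overlapped at 18 weeks, with a difference of 0.17 (SE 0.11, limma adjusted p = 0.388, 95% interval -0.07 to 0.41). With age in WT the difference of Relb was -0.20 and did not pass (limma adjusted p = 0.195), although the ages did not overlap, as for 28.1% of all genes.

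The order of the group means of Tnfsf12, Traf2, Nfkb2 and Relb gave 12 pairs of neighbours. The libraries of 10 of these pairs overlapped. Those of the other 2, Tnfsf12 in WT and R502W at 18 weeks and Nfkb2 in WT at 3 and 18 weeks, did not. The same held for 13.7% of all genes between genotypes at 18 weeks and 28.1% between ages in WT. In an exact permutation test with Benjamini-Hochberg adjustment over the 12 pairs, both had an adjusted p of 0.171. The smallest unadjusted p this test can give with 4 against 4 libraries is 0.0286. The genotype difference was not called as differing between ages for any of these 4 genes by limma, where 0.0780% of all genes were called, and 0 of the 4 had an unadjusted p under 0.05.

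**Figure D2:**
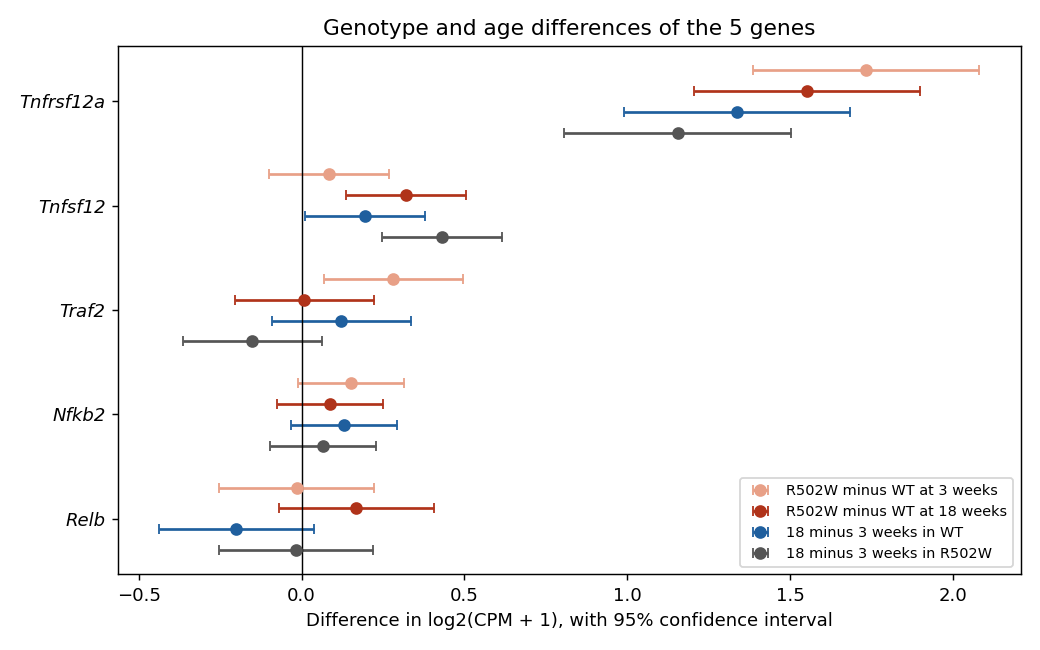
Difference in log2(CPM + 1) (horizontal axis) of the 5 genes for R502W minus WT at each age and 18 minus 3 weeks in each genotype. Points are limma estimates and bars their 95% confidence intervals, with 0 as the vertical line. Tnfrsf12a lies at 1.15 to 1.73, and the other 4 genes lie between -0.20 and 0.43; for Tnfrsf12a only the age difference in WT was tested.

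Nfkb2 is itself a textbook target of NF-kB, and its upstream sequence shows the sites. The table holds 3 windows for it, and each had at least 1 match to the NF-kB consensus, against 5.93% of all 32851 windows of 250 bases. The window shown (chr19:46304487-46304736, plus strand) has the matches in capitals, and the first stretch of capitals is a pair of overlapping matches.
Nfkb2: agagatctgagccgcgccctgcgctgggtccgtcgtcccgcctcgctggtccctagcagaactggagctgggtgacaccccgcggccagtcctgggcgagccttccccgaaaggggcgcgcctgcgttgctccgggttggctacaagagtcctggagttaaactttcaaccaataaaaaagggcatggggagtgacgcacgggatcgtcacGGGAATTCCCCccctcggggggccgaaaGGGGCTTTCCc
The level of Nfkb2 RNA beside this sequence differed by less than the test could call in every comparison. The window of Traf2 held no match to any of the 4 motifs.

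Around these genes, 108 genes of the TNF ligand and receptor families, the TRAF adaptors, the NF-kB pathways and their targets were listed, of which 77 were measured. Leaving out Tnfrsf12a, 3 of 76 rose and 1 fell in R502W at 3 weeks, beside 3.13% of all genes that rose and 3.30% that fell. At 18 weeks 5 of 76 rose and 3 fell, beside 5.60% and 5.10% of all genes. The median difference of the 76 was 0.06 at 3 weeks and 0.04 at 18 weeks, against 0.00 for all genes at both ages. These shares are near those of all genes.

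Of 5 measured TNF ligands, 0 passed the test at 3 weeks by limma, edgeR or DESeq2, and 0 had an unadjusted p under 0.05. At 18 weeks the 1 that rose was Tnfsf12. Tnfsf10, which encodes TRAIL, differed by -0.21 at 18 weeks (limma adjusted p = 0.353). Among 16 measured receptors other than Tnfrsf12a, 2 rose and 0 fell at 3 weeks and 1 rose and 0 fell at 18 weeks. The shares of all genes were 3.13% risen and 3.30% fallen at 3 weeks, and 5.60% and 5.10% at 18 weeks. Tnfrsf10b, the mouse TRAIL receptor, averaged 2.94 ± 0.43 CPM in 3-week WT hearts and 4.10 ± 0.13 CPM in 3-week R502W hearts, and 2.31 ± 0.26 and 3.92 ± 0.29 CPM in the 18-week hearts (SD, n = 4 each). It was higher by 0.38 at 3 weeks (SE 0.11, limma adjusted p = 0.0413) and by 0.57 at 18 weeks (SE 0.11, limma adjusted p = 0.00188). Eda2r, the receptor of an ectodysplasin isoform, rose by 0.40 at 3 weeks (limma adjusted p = 0.0474) and differed by -0.07 at 18 weeks (limma adjusted p = 0.785). The death receptor gene Fas differed by -0.32 at 3 weeks (limma adjusted p = 0.0880). The 3-week call of Tnfrsf10b was lost in 14 of 31 alternatives, among them without any 1 library of that age except WT sample 2 (highest adjusted p 0.119). That of Eda2r was lost in 12, among them without any 1 library of that age except R502W sample 1 (highest adjusted p 0.158). The 18-week call of Tnfrsf10b held in all 31.

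Among 16 TRAF adaptors and receptor-proximal regulators 1 rose and 0 fell at each age, and it was Traf3. Of all genes 3.13% rose and 3.30% fell at 3 weeks, and 5.60% rose and 5.10% fell at 18 weeks. Traf3, which holds the NF-kB-inducing kinase for degradation and so restrains the noncanonical pathway, averaged 20.1 ± 0.34 CPM in 3-week WT hearts and 26.1 ± 3.19 CPM in 3-week R502W hearts, and 23.6 ± 2.10 and 31.3 ± 2.02 CPM in the 18-week hearts (SD, n = 4 each). At both ages all R502W libraries were above all WT libraries. A lack of overlap between genotypes also held for 14.0% of all genes at 3 weeks and 13.7% at 18 weeks. Traf3 rose by 0.35 at 3 weeks (SE 0.08, limma adjusted p = 0.0120) and by 0.39 at 18 weeks (SE 0.08, limma adjusted p = 0.00358). The 18-week call held in all 31 alternatives, and the 3-week call was lost in 1, without R502W 3 weeks sample 2 (limma adjusted p = 0.0535). Traf1, an NF-kB target among the adaptors, differed by 0.42 at 18 weeks (limma adjusted p = 0.103), and Birc3, an inhibitor-of-apoptosis ligase that acts with Traf2, by 0.24 (limma adjusted p = 0.157).

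In the noncanonical list of 9 genes Traf3 was again the 1 that rose at each age, with 0 fallen. Beside it, 3.13% of all genes rose and 3.30% fell at 3 weeks, and 5.60% rose and 5.10% fell at 18 weeks. Map3k14, the NF-kB-inducing kinase, went from a mean of 4.54 in WT to 5.97 CPM in R502W at 3 weeks. It did not overlap between genotypes, as for 14.0% of all genes, but its difference of 0.34 did not pass the test (limma adjusted p = 0.138). At 18 weeks its difference was 0.09 (limma adjusted p = 0.713). Chuk, the kinase that phosphorylates the Nfkb2 precursor, differed by -0.20 at 18 weeks (limma adjusted p = 0.0537).

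By limma 3.13% of all genes rose and 3.30% fell at 3 weeks, and 5.60% rose and 5.10% fell at 18 weeks. None of 15 canonical pathway genes was called by limma at either age. At 3 weeks 3 had an unadjusted p under 0.05, all higher in R502W, and edgeR and DESeq2 called 0. They were Nfkbiz (0.40, limma adjusted p = 0.0818), Rel (0.38, limma adjusted p = 0.0979) and Bcl3 (0.37, limma adjusted p = 0.255). At 18 weeks 7 had an unadjusted p under 0.05, of which 4 were higher, and edgeR called 1 and DESeq2 2. The lower ones were Chuk, Ikbkg (mean 49.2 in WT and 43.5 CPM in R502W) and Rel (15.0 and 11.9 CPM). Rel was higher at 3 weeks and lower at 18 weeks, and limma called neither difference. For the genotype difference between ages limma called 0 of the 15, edgeR 0 and DESeq2 1, and Rel had an unadjusted p under 0.05. Rela, the main transactivating subunit, differed by 0.28 at 18 weeks (limma adjusted p = 0.0589).

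**Figure D3:**
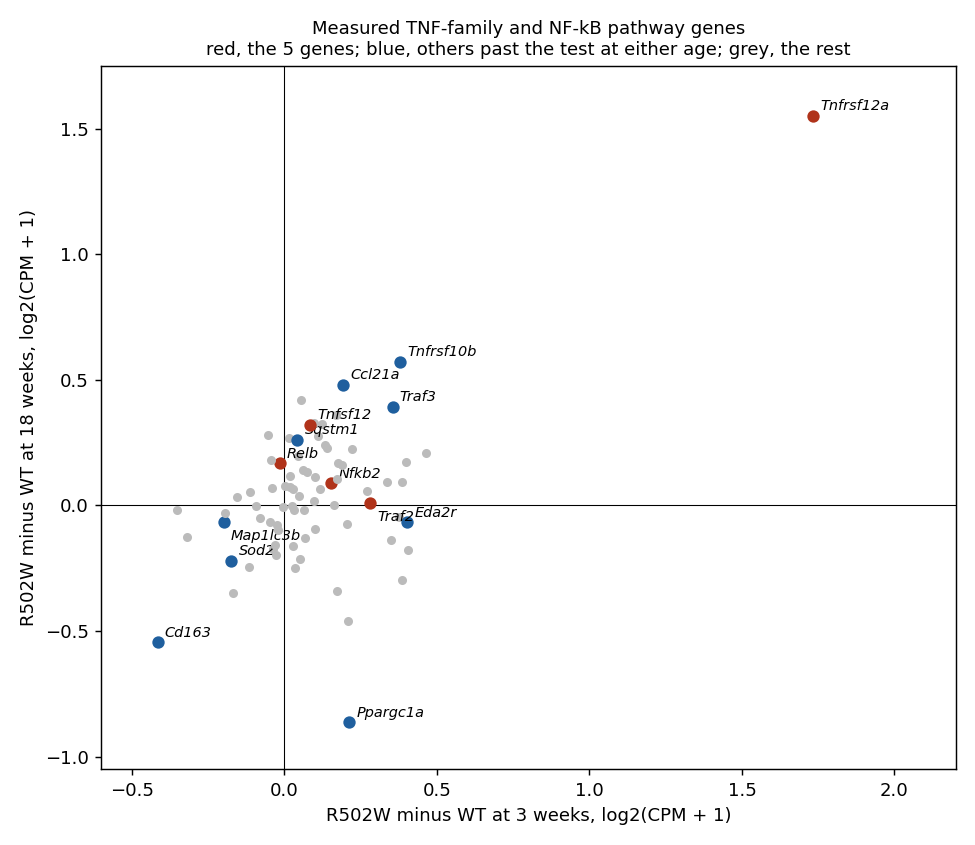
Difference in log2(CPM + 1), R502W minus WT, at 3 weeks (horizontal axis) and at 18 weeks (vertical axis), for the 77 measured pathway genes. Each point is a gene, with lines at 0. Tnfrsf12a stands at 1.73 and 1.55, while the other 76 genes lie between -0.42 and 0.46 at 3 weeks and between -0.86 and 0.57 at 18 weeks.

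Of 20 measured NF-kB target genes 0 were called by limma at 3 weeks, beside 3.13% of all genes that rose and 3.30% that fell, and 3 had an unadjusted p under 0.05, edgeR called 0 and DESeq2 called 1. At 18 weeks 1 rose and 1 fell, shares near the 5.60% and 5.10% of all genes. Sod2, mitochondrial superoxide dismutase, fell from 580 ± 14.2 in WT to 498 ± 33.4 CPM in R502W (SD, n = 4 each; log2 difference -0.22, limma adjusted p = 0.0124), a call that held in all 31 alternatives. Ccl21a, a lymphoid chemokine, rose by 0.48 (limma adjusted p = 0.0478), but the genotypes overlapped and 19 of 31 alternatives ended the call, among them leaving out any 1 library of that age except WT sample 4 and R502W sample 2 (highest adjusted p 0.169). Reads of Ccl21a can be shared with near-identical copies, so its level is uncertain. The leukocyte adhesion genes Icam1 and Vcam1 differed by -0.25 and -0.13 at 18 weeks and did not pass (limma adjusted p = 0.447 and 0.587).

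Of 8 measured genes linked to TWEAK in skeletal muscle, 1 rose and 2 fell with R502W at 18 weeks, beside 5.60% and 5.10% of all genes, and 0 rose and 1 fell at 3 weeks, beside 3.13% and 3.30%. Whether the list's counts differ between the ages was not tested. Ppargc1a, the coactivator of mitochondrial biogenesis that TWEAK is known to repress in muscle and heart, ran from 132 to 257 CPM in WT and from 83.6 to 115 CPM in R502W at 18 weeks. The genotypes did not overlap, as for 13.7% of all genes. The log2 difference was -0.86 (SE 0.18, limma adjusted p = 0.00455), which held in all 31 alternatives. At 3 weeks the means were 122 ± 13.3 in WT and 142 ± 28.7 CPM in R502W (SD, n = 4 each), a difference of 0.21 (limma adjusted p = 0.590). The genotype difference at 18 weeks differed from that at 3 weeks by -1.07 (SE 0.26), with a limma adjusted p of 0.128.

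Cd163, a macrophage scavenger receptor that takes up TWEAK, fell from a mean of 33.4 to 22.0 CPM at 18 weeks (-0.54, limma adjusted p = 0.0231), with overlapping genotypes. At 3 weeks it differed by -0.42 (limma adjusted p = 0.107), and passed in 5 of 31 alternatives. Sqstm1, an autophagy adaptor, rose from 345 to 415 CPM (0.26, limma adjusted p = 0.0344). The calls of Cd163 and Sqstm1 were lost in 7 and 6 of 31 alternatives, where the highest adjusted p was 0.0850 and 0.107. Each was lost without WT 18 weeks samples 1 or 2 or R502W 18 weeks sample 4, Cd163 also without WT sample 3 or R502W sample 1 and Sqstm1 also without R502W sample 3. The 1 that fell at 3 weeks was Map1lc3b, which encodes an autophagosome protein and differed by -0.20 (limma adjusted p = 0.0160). Its call was lost in 4 of 31 alternatives, with no mean-variance trend in the spread and without WT 3 weeks sample 2 or R502W 3 weeks samples 2 or 3 (highest adjusted p 0.0665). The muscle ubiquitin ligase genes Trim63 (0.18, limma adjusted p = 0.140) and Fbxo32 (0.07, limma adjusted p = 0.721) did not pass at 18 weeks.

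The total of 4 genes called at 3 weeks among the 76 was 0 without R502W 3 weeks sample 2, 2 without any 1 of WT samples 1 to 4 or R502W samples 3 or 4 of that age, and 8 with library weights. The count over all genes moved too, from 907 to 484 without R502W 3 weeks sample 2 and to 1328 with library weights. Without any 1 of the other samples named it was 493 to 743. The total of 8 at 18 weeks was 5 without any 1 of WT 18 weeks sample 2, R502W 18 weeks sample 1 or R502W 18 weeks sample 3, and 4 without R502W 18 weeks sample 4. Over all genes the 1509 calls at 18 weeks became 1244, 1120, 1128 and 934 in these fits, in the order named. For the genotype difference between ages limma called 0 of the 76, 6 had an unadjusted p under 0.05, edgeR called 0 and DESeq2 called 2. Over all genes limma called 11 there, edgeR 0 and DESeq2 106.

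With age in WT, where Tnfrsf12a rose, 14 of the 76 pathway genes rose and 6 fell, beside 15.8% and 14.4% of all genes. With age in R502W 11 rose and 8 fell, beside 18.5% and 17.3% of all genes. Among NF-kB targets 6 of 20 rose with age in WT and 1 fell, and 2 rose and 0 fell in R502W. The monocyte chemokine genes Ccl7 and Ccl2 rose by 1.03 (limma adjusted p = 1.050e-04) and 0.94 (limma adjusted p = 8.596e-04) in WT, and differed by 0.36 (limma adjusted p = 0.0944) and 0.46 (limma adjusted p = 0.0653) in R502W. Both were weakly expressed. In WT at 3 and 18 weeks Ccl7 averaged 0.44 and 1.98 CPM, and Ccl2 0.89 and 2.63 CPM. Vcam1 rose in both, by 0.62 (limma adjusted p = 0.00128) in WT and 0.42 (limma adjusted p = 0.0157) in R502W. The genotypes share no library in these contrasts, and whether the age effect on the whole list differs between them was not tested. For a single gene, the difference of its age effects is the same comparison as that of its genotype difference between ages. There limma called 0 of the 76, as given above. Ppargc1a, Rel, Ccl7, Eda2r, Csf1 and Trim63 had an unadjusted p under 0.05 in it.

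Traf3 rose with age in WT by 0.22 (limma adjusted p = 0.0473) and in R502W by 0.26 (limma adjusted p = 0.0185). Sqstm1 rose by 0.68 (limma adjusted p = 3.012e-06) and 0.90 (limma adjusted p = 7.027e-08). Ppargc1a rose by 0.60 in WT (limma adjusted p = 0.0174) and differed by -0.47 in R502W (limma adjusted p = 0.0517). The NF-kB subunit gene Rel fell in R502W by 0.68 (limma adjusted p = 6.069e-04) and was at -0.00 in WT (limma adjusted p = 0.996). Eda2r fell by 0.78 in R502W (limma adjusted p = 4.970e-05), and in WT it differed by -0.31 (limma adjusted p = 0.0507). For Ppargc1a, Rel and Eda2r limma did not call the age effect as differing between genotypes.

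The genes most like Tnfrsf12a were the 10 with the highest Pearson r of log2(CPM + 1) with Tnfrsf12a over the 16 libraries, among 7053 genes with a mean above 14.8 CPM, the median of all genes. That floor left out 41 of the 76 pathway genes, Tnfsf12, Traf2 and Relb among them, so these could not appear, and none of the 35 that were searched was among the 10. In order the 10 were Ankrd23, Nppb, Mapt, Myl12a, Tlr4, Ankrd1, Rrp12, Ehbp1l1, Adprhl1 and Samd4, with r from 0.98 to 0.96. Ankrd23 and Ankrd1 encode ankyrin repeat proteins that bind titin and respond to stretch, and Nppb encodes B-type natriuretic peptide. The 16 libraries share 4 group means, and genes that differ between the groups in the same order reach a high r by that alone. After the group means were taken away, r was 0.75 for Ankrd23, 0.75 for Nppb, 0.63 for Ankrd1 and 0.82 for Samd4, and the lowest of the 10 was 0.45 for Tlr4. The r that chose the 10 includes the variation within groups of the same libraries. Their remaining r is therefore partly set by the choice, and it was not compared with that of all genes.

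Ankrd23 averaged 107 ± 25.4 CPM in 3-week WT hearts and 284 ± 24.3 CPM in 3-week R502W hearts, and 224 ± 36.0 and 683 ± 89.4 CPM in the 18-week hearts (SD, n = 4 each). Nppb averaged 19.5 ± 7.57 and 104 ± 22.9 CPM in the 3-week hearts, and 78.9 ± 33.8 and 303 ± 60.3 CPM in the 18-week hearts (SD, n = 4 each). Both had the same order of groups as Tnfrsf12a, with WT at 3 weeks lowest and R502W at 18 weeks highest. The ligand had r = 0.77 with the receptor over the 16 libraries and -0.06 after the group means were taken away. For Traf2 the values were 0.36 and 0.10, for Nfkb2 0.54 and -0.50, and for Relb -0.02 and 0.03, so none of the other 4 genes followed the receptor within groups with an r above 0.10. These 4 were not chosen by r, so their values are not directly comparable with those of the 10. Of the 10 genes named, 6 were also among the 10 highest by Spearman's rho, and 4 to 8 when 1 group was left out.

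**Figure D4:**
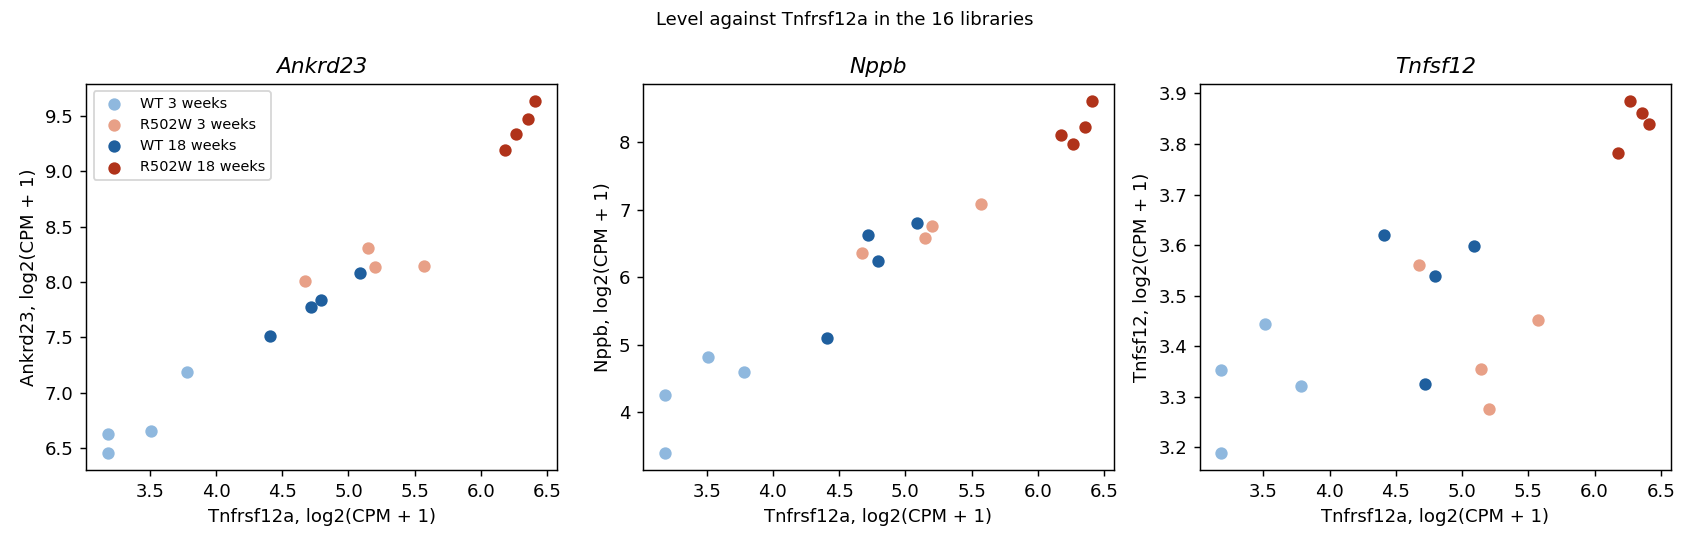
Level of Ankrd23, Nppb and Tnfsf12 (vertical axes) against Tnfrsf12a (horizontal axis), each as log2(CPM + 1), in the 16 libraries, coloured by group. Ankrd23 and Nppb follow Tnfrsf12a with r = 0.98 over all libraries. Tnfsf12 has r = 0.77, and its 4 libraries of R502W at 18 weeks lie above the other 12.

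Upstream windows were in the RefSeq table for 7 of these 10 genes, and Mapt, Tlr4 and Rrp12 had no entry. A match to TEAD (GGAATG) was found for 5 of the 7, in Ankrd23, Nppb, Ankrd1, Ehbp1l1 and Samd4, some of which have 2 windows. Of all 32851 windows 12.6% held one, and 14.4% of the 27025 genes with windows had it in at least 1. AP-1 matched in 1 of the 7 (7.82% of all genes with windows), NF-kB in 2 (6.73%) and serum response factor in 0 (1.62%). The window of Nppb (chr4:147985650-147985899, plus strand) and the second window of Ankrd23 (chr1:36535740-36535989, minus strand) are shown because these genes were the most like Tnfrsf12a, with the TEAD match in capitals, on the opposite strand in Ankrd23. The match begins 105 bases before the start of Nppb and 120 bases before that of Ankrd23, and the data do not show which start is used.
Nppb: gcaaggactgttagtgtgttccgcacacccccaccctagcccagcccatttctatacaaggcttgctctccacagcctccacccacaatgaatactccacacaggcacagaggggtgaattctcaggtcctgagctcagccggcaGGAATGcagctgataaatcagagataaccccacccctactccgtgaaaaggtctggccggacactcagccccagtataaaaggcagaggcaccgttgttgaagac
Ankrd23: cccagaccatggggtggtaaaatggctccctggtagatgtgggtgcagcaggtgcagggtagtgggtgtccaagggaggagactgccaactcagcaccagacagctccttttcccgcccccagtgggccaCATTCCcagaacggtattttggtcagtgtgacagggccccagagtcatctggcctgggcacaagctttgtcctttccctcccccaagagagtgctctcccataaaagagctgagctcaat
Beside these, the window of Tnfrsf12a above holds none of the 4 motifs. A match is a description of the letters and no evidence of binding.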

How the data were processed

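Whole-heart RNA of 16 mouse samples was profiled by RNA-seq, and groups were taken from the sample titles. The deposited values are a signal in CPM, scaled by the authors with the normalization factors of their libraries. The tools named per the submitters' processing notes are RSEM, limma, FastQC and cutadapt, with the build GRCm38, with versions not given in the sources used here. Every value is a read count with 0.5 added, over an effective library size, so reads could be solved for: 100% of the values came out whole within 0.01 reads, although RSEM estimates fractional counts. In 2 libraries too few values lay near the smallest one for a separate check of the steps.

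The log2(value + 1) values were fitted by limma 3.58.1 (R 4.3.3), with 1 mean per group over all 16 libraries, a moderated spread that follows mean level (empirical Bayes), two-sided tests and Benjamini-Hochberg adjustment over 14109 genes at 0.05, with no filter on low values. The procedure was tested on simulated data. Adjusted p-values in the text are limma's unless another tool is named. Alternatives were pseudocounts of 0.5 and 0.1, filters at 1 CPM, other normalizations and spread models, library weights, only the groups compared, the sample number as a block, each library left out, and edgeR 4.0.16 and DESeq2 1.42.0 on the recovered reads. On those reads edgeR called 897 and 1463 genes between genotypes at the younger and older age, and 4166 and 5013 genes between ages in WT and R502W, against 907, 1509, 4264 and 5048 by limma. A covariate for atrial markers and a fit that left out 2 libraries apart in these markers, WT 18 weeks sample 2 and R502W 3 weeks sample 1, were chosen after seeing the data. In mean atrial log2 level, WT 18 weeks sample 2 was at 7.15, against 2.76 to 5.16 in the rest of its group. It lay within the 5.27 to 7.28 of R502W at 18 weeks, so leaving it out does not bring the genotypes closer in these markers.

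The 5 genes, the gene lists and the tests were chosen with earlier results of these data known. Named are the 5 genes, called members of each list or otherwise up to 4 with the smallest p, and the 10 genes with the highest r; Tnfsf10, Fas, Traf1, Birc3, Map3k14, Icam1, Vcam1, Trim63, Fbxo32 and Tnfsfm13 were named outside that rule, for their roles and after their values were seen. Exon lengths come from the GENCODE annotation of GRCm38 and upstream windows from the RefSeq table of GRCm38.p6. No 2 libraries of a group were near-identical (smallest chi-square per degree of freedom 7.32). Plots were made in Python 3.11.15 with matplotlib 3.10.9.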

Additional observations from a re-analysis of the deposited data

Results flagged for a closer look

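In 4 of 56 groups of 4 libraries examined (the 5 genes and the pathway genes called between genotypes), 1 library lay far from the other 3, where chance alone gives about 1 in 20 groups. Sod2 was 558 CPM in WT 18 weeks sample 3, while its group otherwise lay at 585 to 588. Ppargc1a was 141 CPM in WT 3 weeks sample 3, against 113 to 117, and 185 CPM in R502W 3 weeks sample 3, against 123 to 133. Cd163 was 21.3 CPM in WT 18 weeks sample 4, against 36.3 to 38.5. No group of Tnfrsf12a, Tnfsf12, Traf2, Nfkb2 or Relb was among these 4.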

How the results depend on the processing

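All 4 differences of Tnfrsf12a kept their direction in 31 alternatives, which leaving out 1 library could not have reversed, since the groups did not overlap. Its rise with age in WT kept its call, with a limma, edgeR or DESeq2 adjusted p of at most 1.417e-04. The WT libraries of this test also serve in the genotype comparisons on which Tnfrsf12a was selected, so it is not independent of the selection. The higher Tnfsf12 of R502W at 18 weeks lost its call when only the groups compared were fitted (0.32, limma adjusted p = 0.0568), with the atrial covariate (0.31, adjusted p = 0.0602) and without the 2 libraries apart in atrial markers (0.26, adjusted p = 0.0749), alternatives of which the last 2 were chosen after seeing the data. With 1 library left out it ranged from 0.26 to 0.35. Its age difference in WT passed without those 2 libraries (0.26, adjusted p = 0.0323) and without WT 18 weeks sample 2 (adjusted p = 0.0344), and ranged from 0.15 to 0.26 with 1 library left out. Traf2 with age in R502W kept its direction and passed without R502W 18 weeks sample 1 (-0.255, adjusted p = 0.0430), with -0.255 to -0.106 over the libraries left out. The cause was not tested.

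Differences near 0 changed sign without passing the test. Traf2 at 18 weeks was -0.0140 under quantile normalization and -0.0536 with the atrial covariate, and ranged from -0.0948 to 0.0602 with 1 library left out. Relb at 3 weeks was 0.0128 with library weights, 0.00923 with the atrial covariate and 0.0657 without the 2 libraries, and ranged from -0.0846 to 0.0657 with 1 left out. Relb with age in R502W was 0.0113 under quantile normalization and ranged from -0.0972 to 0.0842. Sqstm1 at 3 weeks ranged from -0.0156 to 0.108 and Eda2r at 18 weeks from -0.149 to 0.0206. In the order of levels, with 1 library left out, WT over R502W at 3 weeks ranged from -0.0657 to 0.0846 for Relb, R502W 3 weeks over R502W 18 weeks from -0.0842 to 0.0972 for Relb, R502W 3 weeks over WT 18 weeks from -0.0134 to 0.0792 for Nfkb2, and R502W over WT at 18 weeks from -0.0948 to 0.0602 for Traf2.

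Of the 76 pathway genes, limma called 5 at 18 weeks when only the groups compared were fitted and 5 without the 2 libraries, and 8 at 3 weeks with library weights. With 1 library left out the counts ranged from 0 to 5 at 3 weeks and from 4 to 11 at 18 weeks. For the genotype difference between ages DESeq2 called 2, the atrial covariate gave 1, and leaving out 1 library gave 0 to 2. Over all genes that count was 11 by limma, 0 by edgeR and 106 by DESeq2. It was 28 with the atrial covariate and 0 to 82 with 1 library left out. The genes called between genotypes at 3 weeks numbered 907, and 493 without WT 3 weeks sample 2, 484 without R502W 3 weeks sample 2 and 592 without R502W 3 weeks sample 3. With library weights they numbered 1328. At 18 weeks they numbered 1509, and 951 with only the groups compared, 1256 without the 2 libraries and 934 without R502W 18 weeks sample 4. Of the 10 genes most like Tnfrsf12a, 6 were shared under Spearman's rho, and 5, 4 and 5 without WT 3 weeks, R502W 3 weeks and WT 18 weeks.

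Samples with the same number did not deviate together: over 24 pairs r lay between -0.18 and 0.14, with 3 above 0.1, and the best match was the same number in 9 of 48 choices. With the number as a replicate block, limma called 3 and 8 of the 76 between genotypes at the younger and older age, 20 and 21 between ages in WT and R502W, and 771 and 1336 of all genes between genotypes at 3 and 18 weeks. Depth limits the least abundant genes, such as Relb with 109 reads in its lowest library.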
